A study of Mus musculus with 12 samples.

Results

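A set of 8 genes of club cells and other secretory cells of the airway was followed across whole lungs of *miR-30a*-/- mice. The genes were *Scgb1a1*, *Scgb3a1*, *Scgb3a2*, *Bpifa1*, *Bpifb1*, *Muc5b*, *Reg3g* and *Aldh1a1*, and were chosen by symbol, as 8 of the 55487 genes in the count table. Each symbol matched 1 entry, and all 8 passed the expression filter that kept 45828 genes for testing. RNA-Seq was done on 12 lungs in 4 groups of 3: males and females that breathed hyperoxia (95% FiO2) from postnatal day (PND) 1 to PND 5, and males and females kept in room air over the same days. All lungs were collected on PND 21, so the hyperoxia-exposed mice had recovered in room air by then. Every mouse, the room air controls included, carried a CRISPR deletion of the whole *miR-30a* gene on the C57BL/6J background in all tissues, and wild-type lungs were not analysed here. Litters were mixed before exposure, and the labels do not give the litter of a mouse. *Mir30a* had 0 counts in all 12 lungs, as did its neighbour *Mir30c-2*, and these data therefore do not measure the deletion itself.

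Club cells are domed, non-ciliated secretory cells that line the bronchioles. They release secretoglobins into the airway fluid, oxidise inhaled chemicals with cytochrome P450 enzymes and act as progenitors when the airway lining is injured. Mucous and serous secretory cells of larger airways add gel-forming mucins and lipid-binding antimicrobial proteins, and the cilia of neighbouring cells move this layer out of the lung. In whole lung these cells are a small and patchy fraction. In such bulk libraries fewer cells of a type and less RNA per cell cannot be told apart.

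The libraries held 8763033 to 16741694 counts on genes (median 11942546). Levels are given in CPM, the count divided by a library size that was adjusted by its upper quartile, and a floor of 3 counts corresponded to 0.191 to 0.327 CPM. A pair of room air libraries stood apart. Room air female 5 had the highest level of 7 of the 8 genes among the 12 lungs, where 14.6% of all genes tested were highest in it. It was also highest for 11 of 15 other club cell genes, 13 of 18 ciliated cell genes and 9 of 11 alveolar type 2 genes, and for 0 of 10 cartilage genes. Room air male 1 was highest for 11 of 11 skeletal muscle genes, whose summed level was 1994 CPM there and 118 to 169 CPM in the other lungs, and for 9 of 9 squamous genes of the oesophagus, at 1372 CPM against 43.4 to 64.7 CPM. Exposure values that changed most without one of them are also given without it. The lung identity of the tissue was clear in every library, with *Sftpc*, the surfactant gene of alveolar type 2 cells, at no less than 1970 CPM.

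*Scgb1a1* encodes the club cell secretory protein, the most abundant product of club cells, and lies on chromosome 19 of mm10 from 9083636 to 9087958 (ENSMUSG00000024653). It alone took 0.388% to 1.04% of all counts in a library. In room air it stood at 4983, 7048 and 4617 CPM in males 1, 4 and 5, and at 5846, 11066.5 and 5596 CPM in females 2, 5 and 6. After hyperoxia it stood at 5962, 3809 and 4363 CPM in males 1, 2 and 3, and at 3876, 5789 and 4570 CPM in females 2, 4 and 5. Apart from room air female 5, whose level was 1.57 times that of the next lung, the exposed and control lungs covered overlapping ranges. The mean ± SD was 6526 ± 2377 CPM in room air and 4728 ± 935 CPM after hyperoxia (n = 6 each), and 5618 ± 936 CPM in room air without room air female 5 (n = 5).

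*Scgb3a2*, a secretoglobin of bronchiolar secretory cells, lies on chromosome 18 from 43764289 to 43767399 (ENSMUSG00000038791). Its room air levels were 180, 202 and 96.4 CPM in males 1, 4 and 5 and 138, 373 and 182 CPM in females 2, 5 and 6. Its levels after hyperoxia were 220, 155 and 134 CPM in males 1, 2 and 3 and 152, 171 and 141 CPM in females 2, 4 and 5. All 6 hyperoxia-exposed lungs lay within the range of the room air lungs. *Scgb3a1*, a secretoglobin known from secretory cells of the larger airways, lies on chromosome 11 from 49663610 to 49665118 (ENSMUSG00000064057) and was the most variable of the 8 genes. It ranged 39.3-fold over the lungs, from 3.69 CPM in room air male 5 to 145 CPM in room air female 5, with a coefficient of variation of 107%. The other room air lungs held 30.6 and 38.1 CPM in males 1 and 4 and 12.5 and 37.6 CPM in females 2 and 6. After hyperoxia it stood at 29.2, 28.4 and 8.79 CPM in males 1, 2 and 3 and at 50.8, 27.5 and 7.73 CPM in females 2, 4 and 5. Low and high lungs occurred in every group, and without room air female 5 the range was still 13.8-fold.

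*Muc5b*, the gel-forming mucin that airway clearance depends on, lies on chromosome 7 from 141839070 to 141873084 (ENSMUSG00000066108). In room air it stood at 128, 155 and 75.7 CPM in males 1, 4 and 5 and at 104, 383 and 165 CPM in females 2, 5 and 6. The exposed lungs held 159, 145 and 78.5 CPM in males 1, 2 and 3 and 177, 120 and 76.1 CPM in females 2, 4 and 5. The lungs with the least *Muc5b*, room air male 5, hyperoxia female 5 and hyperoxia male 3, were also the 3 lungs with the least *Scgb3a1*. *Bpifb1* and *Bpifa1* encode secreted proteins with a lipid-binding fold shared with a bactericidal protein of neutrophils, and are neighbours on chromosome 2. *Bpifa1* runs from 154142880 to 154149219 (ENSMUSG00000027483) and *Bpifb1* from 154190818 to 154220369 (ENSMUSG00000027485), 41.6 kb apart on the same strand.

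*Bpifb1* stood at 33.3, 32.1 and 15.9 CPM in room air males 1, 4 and 5 and at 14.5, 106 and 35.7 CPM in room air females 2, 5 and 6. Exposed lungs held 41.8, 32.5 and 18.8 CPM in males 1, 2 and 3 and 49.9, 30.8 and 19.4 CPM in females 2, 4 and 5. *Bpifa1* did not share this order of lungs. Its highest level was 19.8 CPM in room air female 6, followed by 12.5 CPM in room air male 1, and the other room air lungs held 6.70 and 7.15 CPM in males 4 and 5 and 6.77 and 9.03 CPM in females 2 and 5. After hyperoxia it stood at 5.46, 7.51 and 5.17 CPM in males 1, 2 and 3 and at 8.57, 8.78 and 6.62 CPM in females 2, 4 and 5. It is the 1 gene of the 8 for which room air female 5 was not highest.

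*Reg3g*, a secreted lectin that kills Gram-positive bacteria at epithelial surfaces, lies on chromosome 6 from 78466269 to 78468872 (ENSMUSG00000030017). It was the lowest of the 8, with 42 to 198 counts per library. It ranged from 2.84 CPM in room air female 2 to 12.6 CPM in room air female 5, hyperoxia female 2 was next at 10.5 CPM, and the other 9 lungs held 3.62 to 6.79 CPM. *Aldh1a1*, which oxidises retinaldehyde to retinoic acid, lies on chromosome 19 from 20492715 to 20643465 (ENSMUSG00000053279). It stood at 137, 207 and 161 CPM in room air males 1, 4 and 5 and at 242, 313 and 192 CPM in room air females 2, 5 and 6. The exposed lungs had 235, 123 and 185 CPM in males 1, 2 and 3 and 162, 175 and 145 CPM in females 2, 4 and 5. The 3 hyperoxia-exposed female lungs thus lay below the 3 room air female lungs, as they did for 6.42% of all genes tested, whereas the male groups overlapped. Reads that fit both *Aldh1a1* and its close copy *Aldh1a7*, or both *Reg3g* and *Reg3b*, may have been divided or dropped in counting, and the levels of these genes are uncertain to that extent.

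**Figure D1:**
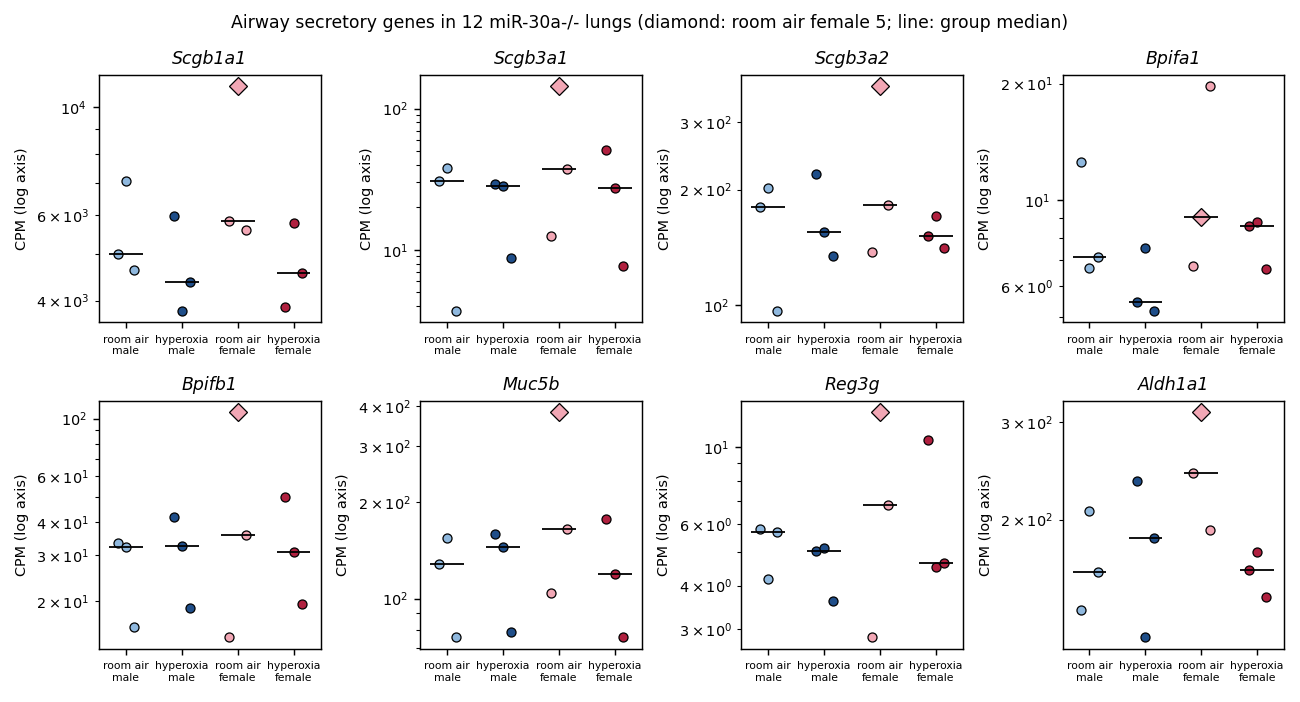
CPM (log axis) of the 8 genes in each of the 12 lungs by group, with the median of each group as a line and room air female 5 as a diamond. The diamond is the highest point for every gene but *Bpifa1*, and *Aldh1a1* in females is the only panel in which the exposed and control lungs of a sex do not overlap. Among all genes tested, 17.2% did not overlap in females and 6.62% in males, in either direction.

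Per length of transcript, as TPM, the 8 genes spanned more than 3 orders of magnitude. The median over 12 lungs was 16791 TPM for *Scgb1a1*, 291 TPM for *Scgb3a2*, 69.7 TPM for *Scgb3a1* and 59.1 TPM for *Aldh1a1*. *Muc5b* followed at 13.6 TPM, *Bpifb1* at 12.9 TPM, *Bpifa1* at 7.93 TPM and *Reg3g* at 3.65 TPM. *Scgb1a1* and *Scgb3a2* held their places in 12 of 12 lungs, but *Scgb3a1* was above *Aldh1a1* in 8 of 12 lungs and *Muc5b* above *Bpifb1* in 6 of 12, so these neighbours were not separated. Reads spread over the genome added to the low genes. With their density taken from 2003 olfactory and vomeronasal receptor genes, most of which belong to sensory neurons, as the median over these genes, background made up on average 50.9% of the counts of *Reg3g*, 24.1% of *Bpifa1*, 16.5% of *Bpifb1* and 15.5% of *Muc5b*. It made up 5.14% of *Scgb3a1*, 3.54% of *Aldh1a1*, 0.680% of *Scgb3a2* and 0.0115% of *Scgb1a1*.

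*Scgb3a1*, *Scgb3a2*, *Bpifb1* and *Muc5b* were correlated in all 6 of their pairs, and these 6 pairs alone passed the threshold when room air female 5 was left out. With room air male 1 left out as well, the pair of *Scgb3a2* and *Bpifb1* missed it (r = 0.722, permutation test, adjusted p = 0.0610), and that of *Scgb1a1* and *Aldh1a1* passed (r = 0.772, permutation test, adjusted p = 0.0443). *Scgb3a1* and *Muc5b* had Pearson's r = 0.954 and Spearman's rho = 0.951 on log2 CPM over 12 lungs (permutation test, adjusted p = 0.00028 and 0.00042). Their r was 0.962 without the 2 lungs farthest from the median of *Scgb3a1*, 0.948 without room air female 5, 0.971 within the hyperoxia lungs and 0.956 within the room air lungs. *Bpifb1* and *Muc5b* had r = 0.944 and rho = 0.916 (permutation test, adjusted p = 0.00056 and 0.00042), and r = 0.957 without the 2 farthest lungs. *Scgb3a1* and *Bpifb1* had r = 0.927 and rho = 0.860 (permutation test, adjusted p = 0.00056 and 0.00448), and r = 0.891 without the 2 farthest lungs. On deviations from the group means, r was 0.959, 0.975 and 0.928 for these 3 pairs. *Scgb3a2* had r = 0.873 to 0.890 with the other 3 genes over all 12 lungs, 0.659 to 0.678 without the 2 farthest lungs and 0.519 to 0.613 within the hyperoxia lungs, so that its relations were weaker without room air female 5 and room air male 5.

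**Figure D2:**
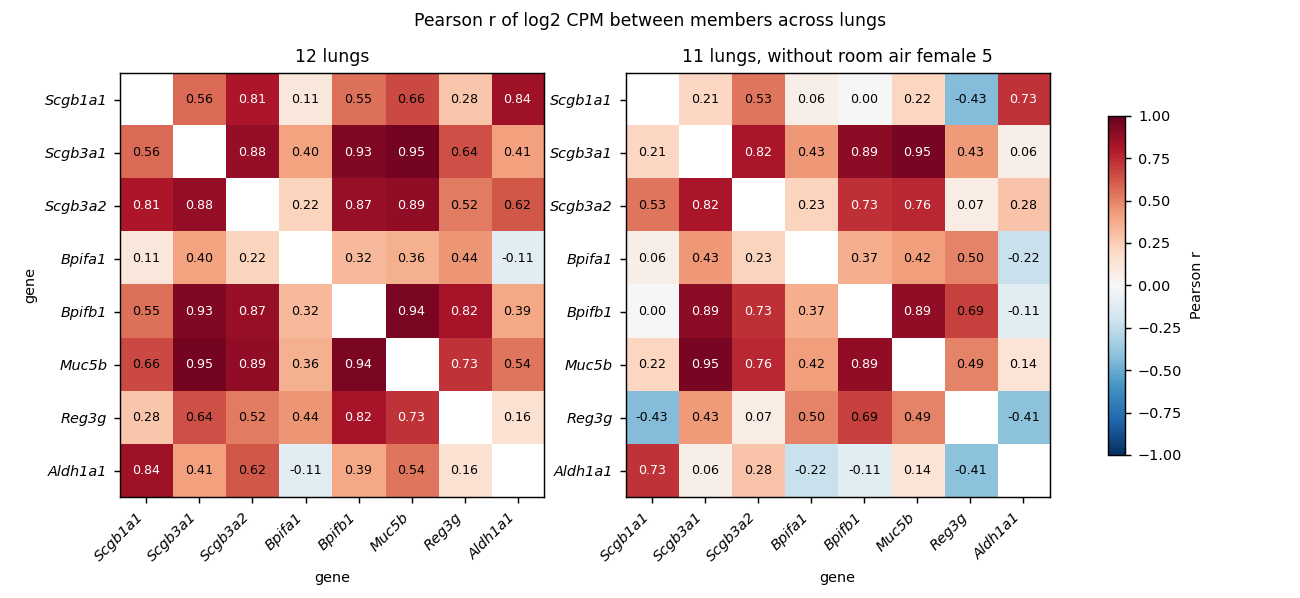
Pearson's r of log2 CPM for each pair of the 8 genes over 12 lungs (left) and over the 11 lungs without room air female 5 (right). The block of *Scgb3a1*, *Bpifb1* and *Muc5b* stays between 0.89 and 0.95 on the right, while *Bpifa1* is between -0.22 and 0.50 with every other gene there.

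In all, 28 pairs were tested and 10 passed an adjusted p under 0.05 by Pearson's r and 9 by Spearman's rho. What share of pairs of other genes would pass was not determined. *Scgb1a1* followed *Aldh1a1* (r = 0.845, rho = 0.804, permutation test, adjusted p = 0.00224 and 0.0164) and, by Pearson's r, *Scgb3a2* (r = 0.805, rho = 0.657, permutation test, adjusted p = 0.0130 and 0.0662). Without the 2 farthest lungs r fell to 0.631 and 0.595, and without room air female 5 both pairs missed the threshold (permutation test, adjusted p = 0.0504 and 0.278). Without room air female 5 the r of *Scgb1a1* was 0.205 with *Scgb3a1* and 0.00187 with *Bpifb1*. Hyperoxia female 2 had the second lowest *Scgb1a1* of the 12 but the second highest *Scgb3a1*, *Bpifb1*, *Muc5b* and *Reg3g*. Its *Scgb3a1* amounted to 1.04% of its *Scgb1a1* on the TPM scale, equal to that of room air female 5, against 0.0637% in room air male 5. *Reg3g* followed *Bpifb1* (r = 0.824, rho = 0.769, permutation test, adjusted p = 0.00294 and 0.0168), with r = 0.561 without the 2 farthest lungs. *Reg3g* with *Muc5b* had r = 0.725 (permutation test, adjusted p = 0.0242) and rho = 0.608 (adjusted p = 0.103 by the same test), and neither pair of *Reg3g* passed without room air female 5.

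*Bpifa1* went with none of the 7 other genes by Pearson's r. Its r with *Bpifb1*, 41.6 kb away, was 0.325 and its rho 0.469 (permutation test, adjusted p = 0.359 and 0.251), with r = 0.514 without the 2 farthest lungs, room air female 6 and room air male 1. Its strongest relation was with *Reg3g*, at r = 0.442 and rho = 0.692 (permutation test, adjusted p = 0.231 and 0.0498), and the counts of both are low. All pairs share the scaling of their library, and the gap between *Bpifa1* and the group of *Bpifb1* was not tested as a difference.

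To show the sequences next to the start sites of genes that varied together and of a neighbour that did not, the RefSeq promoter windows (GRCm38.p6, 250 bases before to 50 after the start) of *Scgb3a1*, *Bpifb1* and *Bpifa1* are printed here. The windows of 5 of the 8 genes were in the table. Capitals mark TATAAA, the forkhead cores GTAAATA and GTAAACA and the NKX2-1 core TCAAGT, searched on both strands, which do not overlap each other in these windows. The windows are chr11:49663345-49663644, chr2:154190568-154190867 and chr2:154142630-154142929, all on the plus strand.
Scgb3a1: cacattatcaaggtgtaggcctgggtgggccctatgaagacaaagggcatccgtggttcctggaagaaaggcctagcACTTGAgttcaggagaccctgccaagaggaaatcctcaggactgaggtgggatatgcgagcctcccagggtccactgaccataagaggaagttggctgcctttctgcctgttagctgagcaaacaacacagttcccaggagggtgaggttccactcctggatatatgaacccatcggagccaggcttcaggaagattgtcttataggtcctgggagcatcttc
Bpifb1: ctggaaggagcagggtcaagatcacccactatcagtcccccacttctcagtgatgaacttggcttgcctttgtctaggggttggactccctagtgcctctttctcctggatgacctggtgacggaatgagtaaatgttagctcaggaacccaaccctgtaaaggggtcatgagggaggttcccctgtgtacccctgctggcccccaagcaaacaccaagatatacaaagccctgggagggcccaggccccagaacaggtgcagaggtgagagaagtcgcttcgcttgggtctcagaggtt
Bpifa1: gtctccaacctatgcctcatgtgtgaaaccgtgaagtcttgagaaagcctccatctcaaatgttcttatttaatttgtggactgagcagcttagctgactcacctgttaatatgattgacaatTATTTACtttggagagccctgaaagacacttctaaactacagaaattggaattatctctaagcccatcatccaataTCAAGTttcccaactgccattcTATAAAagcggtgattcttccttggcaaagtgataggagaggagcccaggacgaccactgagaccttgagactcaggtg
The *Bpifa1* window holds a TATA box whose first base is 29 bases before the start, the NKX2-1 core 51 bases before it and a forkhead core on the minus strand 127 bases before it. The *Scgb3a1* window holds the NKX2-1 core on the minus strand 173 bases before the start, and the first window of *Bpifb1* holds none of the 4 motifs. A second RefSeq start of *Bpifb1*, with its window at chr2:154200130-154200429, has the forkhead core on the minus strand 110 bases before it. Among all 32851 mouse windows of this length 13.6% hold TATAAA, 3.04% GTAAATA, 3.65% GTAAACA and 11.2% TCAAGT on either strand. Matches to TATAAA and TCAAGT are thus common and those to the forkhead cores less so, and a match describes letters only.

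Among genes that are not members, *Scgb1a1* was followed most closely by *Cyp2f2*, the club cell cytochrome P450 that activates naphthalene. Their r was 0.984 over 12 lungs and 0.959 without room air female 5, and *Cyp2f2* ranged from 301 CPM in hyperoxia male 2 to 803 CPM in room air female 5, the lungs with the least and the most *Scgb1a1*. Next among 41155 genes with a mean of at least 1 CPM came *Mydgf* (r = 0.962), *Hp*, the haptoglobin gene (r = 0.961), *Hspa4l* (r = 0.948) and *Arsb* (r = 0.936). For *Bpifa1* the closest were *Gm36043* (r = 0.895), *Gm13687* (r = 0.889), *Gm14796* (r = 0.876), the cytochrome P450 gene *Cyp2a5* (r = 0.868) and *Gpr141* (r = 0.863). The r of *Cyp2a5* was 0.866 without room air female 5. These are the highest of many values and are given as a description. *Chad*, a gene of the other club cell list named after its values were seen, was among the 5 closest genes of *Scgb3a1*, *Scgb3a2*, *Bpifb1* and *Muc5b* alike, with r = 0.900 to 0.949.

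**Figure D3:**
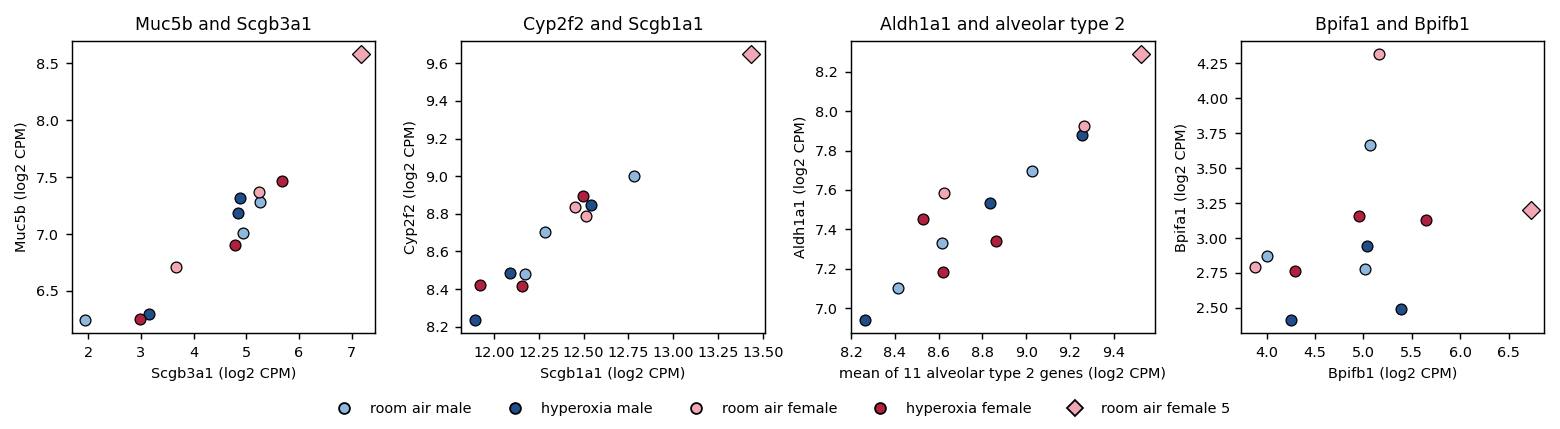
Log2 CPM of 4 pairs over the 12 lungs, coloured by group, with room air female 5 as a diamond. *Muc5b* rises with *Scgb3a1* (r = 0.954), *Cyp2f2* with *Scgb1a1* (r = 0.984) and *Aldh1a1* with the mean of 11 alveolar type 2 genes (r = 0.938), while *Bpifa1* is scattered against *Bpifb1* (r = 0.325).

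Levels of the 8 genes were set against the mean log2 CPM of marker lists for other club cell genes, ciliated cells, alveolar type 2 and type 1 cells and cartilage, 40 relations in all, of which 17 passed by Pearson's r. The share that would pass for other genes was not determined. *Scgb1a1* rose with the 15 other club cell genes (r = 0.952, rho = 0.846, permutation test, adjusted p = 0.00070 and 0.0113), also without the 2 farthest lungs (r = 0.914). *Scgb3a2* (r = 0.891), *Muc5b* (r = 0.825), *Scgb3a1* (r = 0.749) and *Bpifb1* (r = 0.733) passed with these genes by Pearson's r as well (permutation test, adjusted p = 0.00368, 0.0130, 0.0173 and 0.0273). Their rho was 0.825, 0.685, 0.727 and 0.531, by which *Muc5b* and *Bpifb1* did not pass (permutation test, adjusted p = 0.0113, 0.0762, 0.0493 and 0.200). Without the 2 farthest lungs r was 0.745, 0.460, 0.480 and 0.292. *Scgb3a2* rose with the 18 ciliated cell genes (r = 0.888, rho = 0.839, permutation test, adjusted p = 0.00413 and 0.0113), with r = 0.703 without the 2 farthest lungs. By Pearson's r alone *Scgb1a1* (r = 0.811), *Scgb3a1* (r = 0.755) and *Bpifb1* (r = 0.778) also passed with these genes (permutation test, adjusted p = 0.0173, 0.0156 and 0.0173), with r = 0.396, 0.529 and 0.390 without the 2 farthest lungs. *Muc5b* did so too (r = 0.824, rho = 0.573, permutation test, adjusted p = 0.0149 and 0.161). Its r was 0.559 without room air female 5 and 0.447 without hyperoxia male 3 as well, the 2 farthest lungs. This relation thus rested mostly on room air female 5. *Aldh1a1* rose with the 11 alveolar type 2 genes (r = 0.938, rho = 0.909, permutation test, adjusted p = 0.0004 and 0.0024) and with the 8 alveolar type 1 genes (r = 0.936, rho = 0.916, permutation test, adjusted p = 0.0004 and 0.0024). Without the 2 farthest lungs these r were 0.873 and 0.900, and within hyperoxia and room air lungs they were 0.897 to 0.965. It also rose with the 15 other club cell genes (r = 0.812, rho = 0.727, permutation test, adjusted p = 0.00743 and 0.0493), with r = 0.625 without the 2 farthest lungs. Its r with the ciliated cell genes was 0.513 (rho = 0.259, permutation test, adjusted p = 0.172 and 0.521), and -0.065 without room air female 5. The 5 single genes closest to *Aldh1a1* were *Slc16a7*, *Gpbp1*, *Tmem50b*, *Sdcbp* and *Lamp2* (r = 0.984 to 0.987). They are on none of the marker lists and were named after their values were seen. The relations of *Aldh1a1* were thus not particular to alveolar genes. *Aldh1a1* fell as the 10 cartilage genes rose (r = -0.912, rho = -0.825, permutation test, adjusted p = 0.00067 and 0.0113), and r was -0.78 without the 2 farthest lungs. *Scgb1a1* passed by Pearson's r with the same 3 lists, though not by rho. Its r was 0.720 with alveolar type 2 genes (rho = 0.636, permutation test, adjusted p = 0.0173 and 0.110), 0.674 with type 1 genes (rho = 0.643, adjusted p = 0.0324 and 0.110 by the same test) and -0.78 with cartilage genes (rho = -0.615, adjusted p = 0.0156 and 0.126 by the same test). Without the 2 farthest lungs these r were 0.478, 0.371 and -0.347. The share of counts on receptor genes, a measure of background, ran from 0.453% in room air female 5 to 1.04% in hyperoxia male 2, the lungs with the most and the least *Aldh1a1*, and its part in these relations was not tested.

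**Figure D4:**
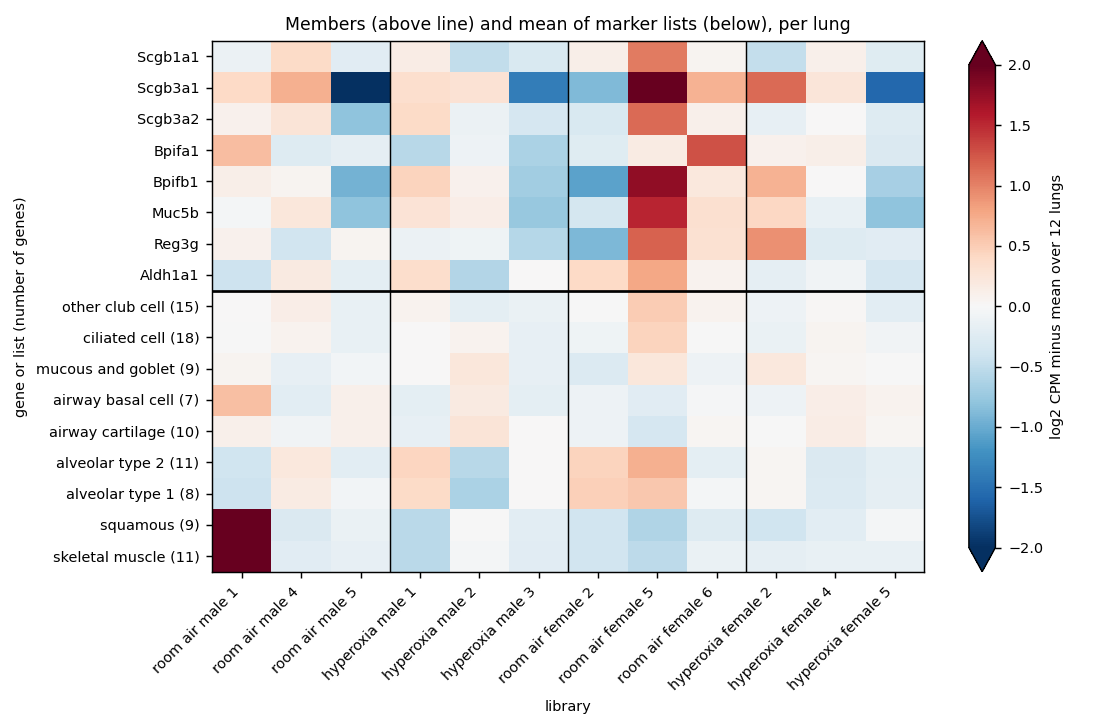
Log2 CPM minus the mean over 12 lungs for the 8 genes (above the line) and for the mean of each marker list (below it), with lungs in columns by group and the colour scale ended at -2 and 2. Room air female 5 is red for all 8 genes and for the club, ciliated and alveolar lists, and room air male 1 for the squamous and skeletal muscle lists.

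The first comparison asked whether these genes still differed on PND 21 after the early exposure, over both sexes, by the quasi-likelihood test of edgeR. All 8 genes had a log2 fold change below 0, as did 44% of all genes tested, and the median was -0.31 against 0.03 over all genes. A gene was called when its adjusted p was under 0.05 with a change of more than 1.5-fold. Of the 8 genes 0 were called, where 19 of 45828 genes or 0.0415% were, and DESeq2 also called 0 of the 8. At an unadjusted p under 0.05 stood 1 of 8 genes, *Bpifa1*, against 5.2% of all genes, of which 2.52% were lower. Its log2 fold change was -0.56 (SE 0.23, 95% interval -1.04 to -0.08, edgeR adjusted p = 0.927). The value was -0.27 without room air female 6, -0.38 without room air male 1 and -0.64 without room air female 5. Its mean was 10.3 ± 5.12 CPM in room air and 7.02 ± 1.53 CPM after hyperoxia (SD, n = 6 each). The exposed and control lungs overlapped for each of the 8 genes, where the exposed lungs lay all above for 0.0938% and all below for 0.12% of all genes.

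The log2 fold change was -0.45 for *Scgb1a1* (95% interval -1.08 to 0.19), -0.25 for *Scgb3a2* (-0.69 to 0.20) and -0.66 for *Scgb3a1* (-2.45 to 1.14). It was -0.36 for *Muc5b* (-1.01 to 0.29), -0.22 for *Bpifb1* (-1.38 to 0.93), -0.19 for *Reg3g* (-0.86 to 0.48) and -0.26 for *Aldh1a1* (-0.64 to 0.11). A change of 2-fold in either direction thus lay inside the interval for *Scgb3a1*, and a fall of that size inside those of *Scgb1a1*, *Bpifa1*, *Bpifb1* and *Muc5b*. The common direction depended on 1 library. Without room air female 5 the log2 fold change was -0.25 for *Scgb1a1*, -0.0088 for *Muc5b* and -0.16 for *Aldh1a1*. It was then 0.04 for *Scgb3a1*, 0.02 for *Scgb3a2*, 0.31 for *Bpifb1* and 0.14 for *Reg3g*, and the median over the 8 genes was 0.01. With the ciliated cell level as a covariate 5 of the 8 genes were above 0.

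In females all 8 genes were below 0, as were 39% of all genes, with a median of -0.64 against 0.11. Again 0 of 8 were called, where 1 gene or 0.00218% was, and DESeq2 called 0 of the 8. *Aldh1a1* had a log2 fold change of -0.63 (SE 0.26, 95% interval -1.16 to -0.10, edgeR adjusted p = 0.364), and of -0.44 without room air female 5. With the share of counts on receptor genes as a covariate it was -0.14 (edgeR adjusted p = 0.982). Its mean was 249 ± 60.6 CPM in room air and 161 ± 14.9 CPM after hyperoxia (SD, n = 3 each). It was the 1 gene of 8 at an unadjusted p under 0.05, against 12.6% of all genes (5.28% lower), and the 1 of 8 whose exposed lungs all lay below the controls, against 6.42% of all genes. With 1 or 2 factors of unwanted variation in the model (RUVr, a step of the study's own analysis with a number of factors that its methods do not give) it was called (edgeR adjusted p = 5.4e-08 and 5.79e-08), and so were 1903 and 1931 genes. The 11 alveolar type 2 genes, with which *Aldh1a1* varied, were all below 0 in females too, with a median of -0.56, as were the 8 alveolar type 1 genes at -0.46. Without room air female 5 these medians were -0.27 and -0.37, and the part of these cells in its value was not tested. The other female values ran from -1.18 for *Scgb3a1* to -0.18 for *Reg3g*, and without room air female 5 the median over the 8 genes was -0.08, with *Scgb3a1* at 0.21, *Bpifb1* at 0.42 and *Reg3g* at 0.47. *Bpifa1* stood at -0.56 in females, and at 0.00 without room air female 6.

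In males 4 of 8 genes were below 0, where 52% of all genes were, and the median was -0.02 against -0.01. With 1 male lung left out the median ran from -0.21 without hyperoxia male 1 to 0.30 without room air male 4. Called were 0 of 8 by edgeR, where 0 of 45828 genes or 0% were, and 0 of 8 had an unadjusted p under 0.05, against 2.7% of all genes (1.8% lower). In 0 of 8 genes did all exposed male lungs lie below the controls, against 3.89% of all genes. DESeq2 called 0 of the 8 as well. *Bpifa1* was the lowest, at -0.56 (SE 0.33, 95% interval -1.25 to 0.14) and at -0.21 without room air male 1, and *Bpifb1* the highest, at 0.20 (SE 0.72) and at 0.37 without room air male 1. Without that library *Scgb3a1* went from -0.13 to 0.080, *Aldh1a1* from 0.10 to -0.020 and *Scgb3a2* from 0.09 to 0.19. The test of the difference between the sexes called 0 of 8 genes, where 0% of all genes were called, and 0 of 8 had an unadjusted p under 0.05, against 8.46% (2.4% lower). The difference was below 0 for 7 of 8 genes, against 41.4% of all genes, with a median of -0.70. Without room air female 5 the median was -0.09, and *Scgb3a1* stood at 0.34 and *Bpifb1* at 0.22. The smallest p was that of *Aldh1a1*, with a female minus male difference of -0.74 in log2 fold change (SE 0.37, 95% interval -1.49 to 0.01, edgeR adjusted p = 0.578). It was called with 1 or 2 RUVr factors, as were 2101 and 2194 genes, and it was -0.11 with the receptor share covariate. *Bpifa1* differed between the sexes by 0.00 (SE 0.50), and by -0.61 with the receptor share covariate.

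**Figure D5:**
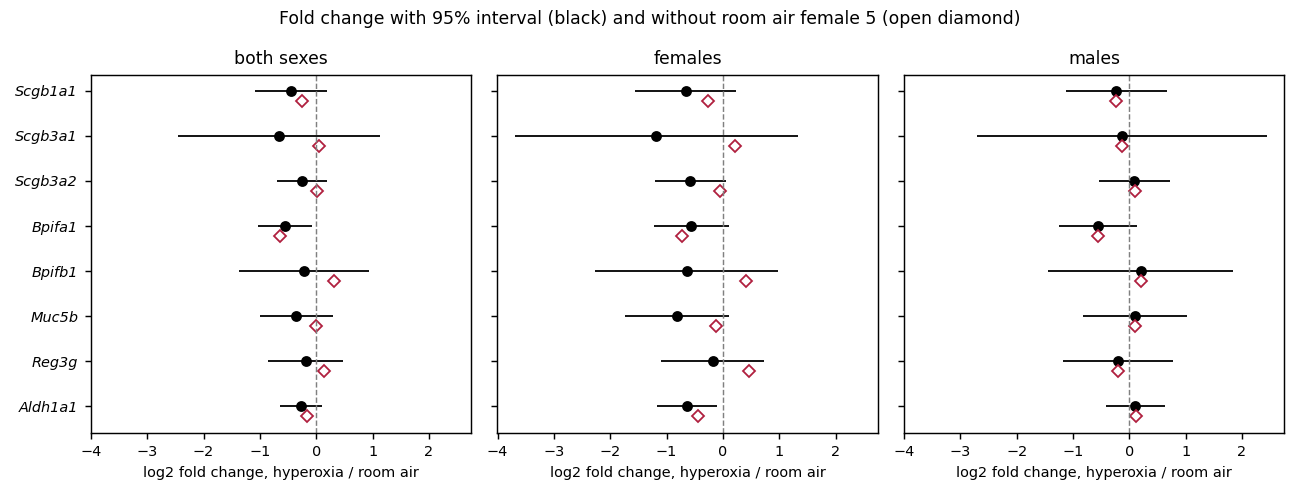
Log2 fold change of hyperoxia over room air for the 8 genes in both sexes, females and males, with the 95% interval as a line and the value without room air female 5 as an open diamond. The *Scgb3a1* interval is the widest, and the diamonds of *Scgb3a1*, *Bpifb1* and *Reg3g* lie above 0 in both sexes together and in females.

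Among the 15 other club cell genes 12 were below 0 in both sexes together, with a median of -0.20 (-0.13 without room air female 5), and 0 were called while 3 had an unadjusted p under 0.05, all lower, against 2.52% of all genes. The most abundant of them, the carbonyl reductase *Cbr2*, ranged from 630 to 1559 CPM, and *Cyp2f2* had a log2 fold change of -0.38 (SE 0.21), or -0.21 without room air female 5, and an edgeR adjusted p of 0.927. *Aldh1a7*, named after its values were seen, had -0.42 (SE 0.13) with an edgeR adjusted p of 0.695, next to -0.26 for its copy *Aldh1a1*. Of 18 ciliated cell genes 13 were below 0 (median -0.06), and of 9 mucous and goblet genes 4 were (median 0.07), each list with 0 called. Without room air female 5 these medians were 0.03 and 0.15. At an unadjusted p under 0.05, 1 ciliated cell gene was lower, and of the mucous and goblet genes 1 was higher and 1 lower. *Muc5ac*, the mucin of goblet cells, stayed between 43.0 and 53.2 CPM, a much narrower range than that of *Muc5b*. Background made up 27.6% of its counts and 15.5% of those of *Muc5b*, and its part in this contrast was not tested. *Clca1*, of the same list, ranged from 10.1 to 62.7 CPM. Among 11 airway defence genes 4 were below 0 (median 0.07), among 12 regulators of secretory fate 10 were (median -0.11), and among 11 cytokine inputs of the *Il17*, *Il22* and *Il13* pathways 8 were (median -0.10), again with 0 called. Lower at an unadjusted p under 0.05 were 2 of the 11 defence genes, 0 of the 12 regulators and 3 of the 11 cytokine inputs. Of 7 basal genes 4 were below 0 (median -0.04), and of 10 neuroendocrine genes 0 were (median 0.15). Room air male 1, the lung with the squamous genes, was highest for 5 of the 7 basal genes. The basal median was 0.11 in females and -0.23 in males. All 11 alveolar type 2 genes (median -0.20), all 8 type 1 genes (median -0.22) and all 8 neutrophil genes (median -0.08) were below 0, and these lists held 0 called genes. Without room air female 5, on which the shared direction of the 8 secretory genes depended, these medians were -0.09, -0.17 and -0.02.

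In the retinoic acid pathway, to which *Aldh1a1* belongs, 1 of 13 genes was called in both sexes together, against 0.0415% of all genes, and 7 were below 0 (median -0.01), against 44% of all genes. It was *Cyp26b1*, which degrades retinoic acid, and it rose. In room air it stood at 22.8, 29.0 and 23.7 CPM in males 1, 4 and 5 and at 25.5, 29.6 and 26.9 CPM in females 2, 5 and 6. After hyperoxia it stood at 98.9, 46.4 and 54.3 CPM in males 1, 2 and 3 and at 39.1, 24.9 and 57.1 CPM in females 2, 4 and 5. Of the exposed lungs 1, female 4, lay within the room air range and the other 5 above it. The log2 fold change was 0.98 (SE 0.18, edgeR adjusted p = 0.0262), and it was 0.78 to 1.11 with each lung left out in turn. The call was lost without room air male 5, female 2, female 5 or female 6 and without hyperoxia male 2, female 2 or female 5, at edgeR adjusted p from 0.0915 to 0.185. It was also lost with 1 or 2 RUVr factors, at a log2 fold change of 0.97 in each, with the ciliated cell covariate at 1.00 and with the receptor share covariate at 1.09 (edgeR adjusted p = 0.0683, 0.0978, 0.0796 and 0.236).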

How the data were processed

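The data are RNA-Seq libraries of 12 whole lungs (PND 21, miR-30a-/-) in 4 groups of 3, with sex, exposure and animal number taken from the sample labels. The authors used Trim Galore for trimming, STAR with mm10 for mapping and featureCounts for counting, and the deposited values are raw counts per gene without normalization. In their own analysis the authors went on to ComBat-Seq batch normalization, RUVr and upper-quartile scaling before edgeR. The labels used here give no batch and the methods no number of RUVr factors, so the main model holds neither step and RUVr is an alternative. Versions, the annotation and the strand setting are not given in the sources used here, and the labels and the methods name different library kits. All 8 genes are on the deposited table, 0 of whose columns lacked a sample.

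Counts of 45828 genes kept by filterByExpr were fitted with edgeR 4.0.16 (R 4.3.3) as 4 groups, robust quasi-likelihood, upper-quartile scaling (biological coefficient of variation 0.177), and a call needed a change of more than 1.5-fold at a p, adjusted by Benjamini-Hochberg, below 0.05. P-values cover the spread between these lungs. Log2 CPM for correlations used a prior count of 2 and 100000 permutations, two-sided, whose smallest p is 1e-05, with adjustment over 28 pairs of genes or 40 relations with lists. Positions and exon lengths came from GENCODE mouse release M21 (55227 genes matched), and promoter windows from RefSeq GRCm38.p6. Background reads per kilobase were the median over receptor genes. On simulated counts for the comparison of both sexes (44916 genes) the model recovered 98 of 100 genes changed 2-fold and 100 of 100 changed 4-fold, with 6 false calls.

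Beside members, the rule named the 3 most abundant genes of each list, every called gene of a list, and the 5 genes closest to *Scgb1a1* and to *Bpifa1*. The genes and lists were chosen with earlier results of these data known. Alternatives were TMM scaling, DESeq2 1.42.0, leaving low genes in, requiring 10 counts per library throughout, no fold change threshold, RUVr with 1 or 2 factors, a covariate for ciliated cells or for receptor genes, fits to the 6 libraries of 1 sex, an animal number block in females, a prior count of 0.5 and each lung left out. Leaving out room air male 1 and room air female 5 together was added after the data were seen.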

Additional observations from a re-analysis of the deposited data

How the results depend on the processing

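The count of members called stayed at 0 in every comparison under every alternative run, except with RUVr (1 or 2 factors), where *Aldh1a1* was called in females (1 gene each) and in the interaction of sex and exposure (1 each). The number of all genes called was less stable. In both sexes it was 40 with DESeq2 and 92 and 110 with RUVr, and 3 to 37 with 1 lung left out. In females it was 0 with TMM, 44 with DESeq2, 8 without a filter, 1903 and 1931 with RUVr, 2 with the ciliated and 22 with the receptor covariate, 80 with the 6 female libraries alone, 14 without room air male 1 and room air female 5, and 0 to 206 with 1 lung left out. In males it was 16 and 64 with RUVr, 6 with the receptor covariate, 2 with the 6 male libraries alone and 0 to 1 with 1 lung left out. In the interaction it was 2101 and 2194 with RUVr. With the animal number as a replicate block in females 451 genes were called, 0 of them members, and *Reg3g* turned to 0.17. Only numbers 2 and 5 occur in both female groups, so the block rested on them. The labels do not say whether a shared number pairs animals. Deviations from the group means correlated at 0.171 for number 2 and -0.323 for number 5, which cannot decide it. RUVr is a step of the study's own analysis. The causes were not tested.

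Directions turned as follows, in log2 fold change. In both sexes the ciliated covariate gave *Scgb3a1* 0.24, *Scgb3a2* 0.054, *Bpifb1* 0.34, *Muc5b* 0.023 and *Reg3g* 0.053, and the receptor covariate *Bpifb1* 0.025 and *Cbr2* 0.074. In females the ciliated covariate gave *Scgb3a1* 0.51, *Bpifb1* 0.47 and *Reg3g* 0.33, and the receptor covariate *Bpifb1* 0.036 and *Reg3g* 0.17. In males the receptor covariate gave *Scgb3a2* -0.017 and *Aldh1a1* -0.028. In the interaction the ciliated covariate gave *Scgb3a1* 0.54 and *Bpifb1* 0.27, the receptor covariate *Scgb1a1* 0.16, *Scgb3a1* 0.027 and *Bpifb1* 0.023, and *Reg3g* was -0.017 with TMM, -0.12 with DESeq2 and -0.032 without a filter. There *Bpifa1* was 0.052 with 10 counts required and 0.054 and 0.034 with RUVr. Without room air male 1 and room air female 5 the values were *Scgb3a1* 0.14, *Scgb3a2* 0.066, *Bpifb1* 0.39, *Muc5b* 0.014 and *Reg3g* 0.17 in both sexes, *Scgb3a1* 0.20, *Bpifb1* 0.42 and *Reg3g* 0.46 in females, *Scgb3a1* 0.080 and *Aldh1a1* -0.022 in males, and *Scgb1a1* 0.034, *Scgb3a1* 0.12 and *Bpifb1* 0.041 in the interaction.

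With 1 lung left out, both sexes ranged from -1.02 to 0.040 for *Scgb3a1*, -0.38 to 0.021 for *Scgb3a2*, -0.44 to 0.31 for *Bpifb1*, -0.45 to 0.14 for *Reg3g*, -0.69 to -0.27 for *Bpifa1* and -0.27 to 0.022 for *Cbr2*. Females ranged from -1.90 to 0.21 for *Scgb3a1*, -1.09 to 0.42 for *Bpifb1*, -0.70 to 0.47 for *Reg3g* and -0.84 to 0.0042 for *Bpifa1*. Males ranged from -0.64 to 0.37 for *Scgb3a1*, -0.12 to 0.33 for *Aldh1a1*, -0.17 to 0.30 for *Scgb3a2*, -0.084 to 0.46 for *Bpifb1* and -0.15 to 0.35 for *Muc5b*. The interaction ranged from -0.51 to 0.66 for *Reg3g*, -0.35 to 0.56 for *Bpifa1*, -1.78 to 0.34 for *Scgb3a1* and -1.29 to 0.22 for *Bpifb1*. The pairs of members past the threshold numbered 6 without room air male 1 and room air female 5, of which 5 were among *Scgb3a1*, *Scgb3a2*, *Bpifb1* and *Muc5b*, and 6 to 13 with 1 lung left out. Without those 2 libraries r was -0.433 for *Scgb1a1* and *Reg3g*, -0.055 for *Bpifb1* and *Aldh1a1* and -0.390 for *Reg3g* and *Aldh1a1*. With 1 lung left out these pairs ranged from -0.432 to 0.559, -0.108 to 0.620 and -0.409 to 0.383, and *Bpifa1* with *Aldh1a1* from -0.234 to 0.022. *Reg3g* and *Bpifa1* rest on the fewest counts, and what limited the calls was not tested.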
